A study of Mus musculus with 8 samples.

Results

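The genes described are Tmsb10, Schip1 and Sptbn5, which encode a peptide that binds actin monomers, a protein with an ankyrin-binding form in the axon initial segment, and a heavy beta spectrin. They were picked by symbol from the 2372 genes of the authors' deposited table, after matching its rows to GENCODE M21 on mouse genome build GRCm38, and all 3 were found by exact position and strand. The table comes from RNA sequencing of tissue from 8 mice, adult males on a C57Bl/6J background recorded as naive for treatment, and the tissue was the mPFC (medial prefrontal cortex). In 4 of them, labelled CamK2A-Cre;Gpr158flox/flox (CaKO), a CamK2A-driven Cre, active mainly in forebrain excitatory neurons, was used to delete both floxed copies of Gpr158, the gene of the orphan receptor GPR158. The other 4 were Gpr158flox/flox littermate controls, which carry the same floxed alleles and, by their label, no Cre, so effects of Cre itself and of the deletion cannot be told apart. The values analysed were normalised read counts (reads divided by 1 factor per library) of the 4 CaKO libraries, and the authors' fold change between genotypes with its p, which is below 0.05 for every listed gene. Values of the single control libraries were not analysed here. Since every listed gene has a p below 0.05, having no value below does not mean that a gene was not expressed.

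Actin filaments grow from a pool of single actin subunits, and beta-thymosins such as TMSB10 hold subunits in that pool by binding them one to one, while profilins, cofilins and the Arp2/3 complex feed, cut and branch the filaments. In axons, short actin filaments are spaced by spectrin, a rod made of alpha and beta chains, into a regular lattice beneath the membrane. At the axon initial segment, where action potentials start, ankyrin-G (Ank3) and beta-IV spectrin (Sptbn4) anchor sodium and potassium channels. SCHIP1 was first known as a partner of the tumour suppressor merlin (Nf2), and a longer form, made from a transcript that reads through from the neighbouring gene Iqcj, binds ankyrin-G at the initial segment and at nodes of Ranvier. SPTBN5, or beta-V spectrin, is the mammalian counterpart of the heavy beta spectrin of flies.

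The sequence of Tmsb10 matters for its value, because another gene carries nearly the same one. Tmsb10 lies on chromosome 6 (72957347 to 72958748, minus strand), has 4 annotated transcripts and encodes a peptide of 44 residues. Gm9844 (chromosome 7, 24862213 to 24862697, plus strand) is marked as a retrogene in the annotation. The coding sequences of both, from the GENCODE M21 transcripts, are shown with the bases that differ between them in capitals, followed by that of Tmsb4x, the other main beta-thymosin of the brain (chromosome X), with capitals where it differs from Tmsb10.
Tmsb10-203: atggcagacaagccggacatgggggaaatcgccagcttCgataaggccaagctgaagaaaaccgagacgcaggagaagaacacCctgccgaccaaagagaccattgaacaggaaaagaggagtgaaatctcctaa
Gm9844-201: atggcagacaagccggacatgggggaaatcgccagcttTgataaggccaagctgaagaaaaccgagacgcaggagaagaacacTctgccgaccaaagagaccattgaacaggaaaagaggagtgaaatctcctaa
Tmsb4x-201: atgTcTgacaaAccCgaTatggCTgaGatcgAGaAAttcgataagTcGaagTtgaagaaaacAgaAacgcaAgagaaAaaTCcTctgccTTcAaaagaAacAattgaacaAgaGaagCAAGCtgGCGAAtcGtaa
Counting from the A of the start codon, the retrogene differs from Tmsb10 by C39T and C84T, which leaves 98.5% of the 135 coding bases identical and every residue the same. Over the aligned part of the spliced transcripts, 462 of 466 bases were identical (99.1%). Of all 1175 windows of 100 bases, the read length, in Tmsb10 transcripts, 115 (9.79%) occur unchanged in Gm9844 and 16 more (1.36%) in Gm3788. For Tmsb10-203 the 2 genes together hold 27.8% of the windows. Tmsb4x is a more distant relative, with 40 of 135 coding bases different, in 27 codons of which 11 encode another residue. Tmsb4x has no value in the table, but both copies are listed, at few reads. Read numbers here are inferred, as normalised counts divided by the step common to a library's values, taken as 1 read. Gm9844 had 2, 2, 9 and 0 reads in CaKO replicates 1 to 4, and Gm3788, a processed pseudogene on chromosome 3, had 9, 10, 2 and 7. Against 1039 reads of Tmsb10 over the 4 libraries, these sums of 13 and 28 reads come to 1.25% and 2.69%. The authors' deposited table gives both copies negative log2 fold changes (-1.94 for Gm9844 and -1.67 for Gm3788), as for Tmsb10, with no adjusted call because both were outside the adjustment. How reads that fit more than 1 of these genes were assigned is not given in the sources used here, so the 3 values may not be independent.

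Schip1 is bound up with its neighbour in another way, through shared exons. It spans 561680 bases of chromosome 3 (68064802 to 68626481, plus strand) and has 8 annotated transcripts. The read-through gene Iqschfp (67892232 to 68626466) encodes the form that begins in Iqcj and continues into Schip1. The 60 coding bases around the join are shown for both, with the own exon in lower case and the start of the shared exon in capitals.
Schip1-201: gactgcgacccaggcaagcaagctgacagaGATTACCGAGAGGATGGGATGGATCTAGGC
Iqschfp-201: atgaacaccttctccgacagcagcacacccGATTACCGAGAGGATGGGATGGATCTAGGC
From this join on, Schip1-201 matches the read-through transcript base for base to its own end. Of the 5102 exon bases of Schip1, 1997 (39.1%) also lie in exons of Iqschfp on the same strand, and 3105 do not. Most of these 3105 come from Schip1-204, a single exon of 1989 bases annotated as a retained intron, of which 94 are shared. Among windows of 100 bases, 90.2% of those in Schip1-201 and 96.8% of those in Schip1-205 also occur in Iqschfp. Iqschfp and Iqcj have no value in the table. A read from the shared exons fits either gene, and how such reads were counted is not given in the sources used here. If they were counted for Schip1, its value could include the read-through form. If they were left out, its value would rest on the 3105 bases outside Iqschfp, mostly those of the retained intron.

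**Figure D1:**
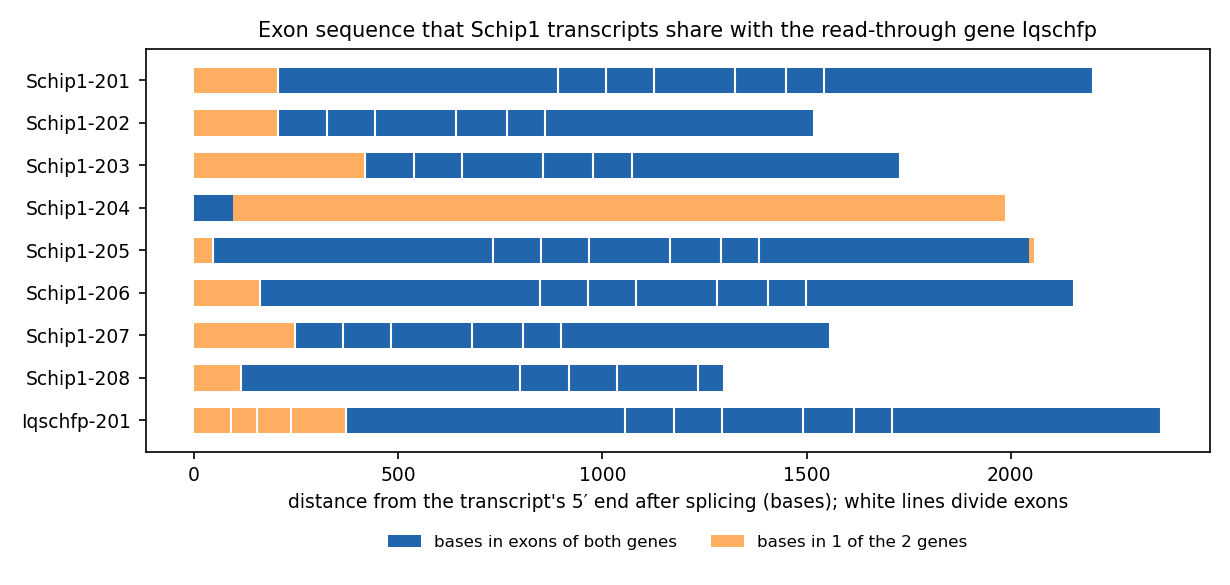
Spliced transcripts of Schip1 and of the read-through gene Iqschfp, drawn to scale in bases from the 5′ end, with exon boundaries as white lines. Blue marks bases that lie in exons of both genes and orange those in 1 of them. Apart from the retained intron Schip1-204, the Schip1 transcripts differ from Iqschfp in the first exon and share most of what follows. Schip1-202, Schip1-203 and Schip1-207 also lack the shared exon of 684 bases, and Schip1-208 ends earlier.

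Sptbn5 has no such partner. It lies on chromosome 2 (120041493 to 120085693, minus strand), and 0 of its 11464 windows of 100 bases occur in another gene's transcripts. GENCODE M21 annotates it as 2 processed transcripts of 2668 and 8994 bases, 67 exon blocks in all, whereas RefSeq on the same build lists a protein-coding gene that begins further upstream, at 120088913. On the opposite strand, exons of Pla2g4b and of Gm28042 each cover 6.79% of its exon sequence. Without strand in the counting, reads from there could not be told apart, and whether strand was used is not given in the sources used here.

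Tmsb10 was lower, and Schip1 and Sptbn5 were higher, in CaKO. In the authors' deposited table the 3 genes are called at an adjusted p below 0.05, as are 419 of the 12938 genes that entered the adjustment (3.24%; 1.27% higher and 1.97% lower). The 3 genes were chosen from those calls, so their fold changes are given as a description, with no test. In bulk tissue, fewer cells of a type and less RNA per cell cannot be told apart.

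Tmsb10 had 282.4, 244.5, 175.0 and 352.2 normalised counts in CaKO replicates 1 to 4. Replicate 3 was the lowest and replicate 4 the highest, 2.01-fold apart. The mean was 264 ± 74.0 (SD, n = 4). The authors' deposited table gives a log2 fold change of -1.27 at an adjusted p of 1.57e-06, which puts CaKO at 41.6% of control. The p implies a 95% interval of -1.67 to -0.86 on the log2 scale, or 31.4% to 55.0% of control. The CaKO libraries spanned 1.01 on the log2 scale and stood at 27.6% to 55.6% of the control level of 634 normalised counts that the fold change implies. That level is the CaKO mean divided by the fold change for which the gene was picked, here and for the other 2 genes, and the spread of the controls is not seen, so where the libraries lie against it is no independent support. In the table Tmsb10 had the seventh smallest p of the genes in the adjustment and ranked 6 by size among the 255 that fell.

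Schip1 moved the other way. It had 297.5, 374.7, 480.2 and 496.0 normalised counts in CaKO replicates 1 to 4. Replicate 1 was the lowest and replicates 3 and 4 were close together at the top. The mean was 412 ± 93.5 (SD, n = 4), and the authors' deposited table lists it 1.97-fold higher, at a log2 value of 0.98 and an adjusted p of 0.000151, with an implied 95% interval of 0.60 to 1.35. The libraries spanned 0.74 on the log2 scale and stood at 142% to 237% of the implied control level of 210 normalised counts. Among the 164 genes that rose, Schip1 ranked 10 by size.

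Sptbn5 was far less abundant. It had 52.3, 68.1, 59.6 and 51.1 normalised counts in CaKO replicates 1 to 4, from 52, 68, 60 and 49 inferred reads. The libraries were close together, with replicate 2 the highest and replicates 1 and 4 nearly equal. The mean was 57.8 ± 7.88 (SD, n = 4). The authors' deposited table lists it 1.72-fold higher, at a log2 value of 0.78 and an adjusted p of 0.0484, with an implied 95% interval of 0.30 to 1.27. Its p of 0.00153 is near the largest p of a called gene, 0.00162, so Sptbn5 is among the last genes to be called, and its call ended with any 1 CaKO library left out (log2 0.69 to 0.84). With its fold change held, the wider standard error of 3 libraries was enough to end it, so the losses of Sptbn5 do not single out a library. That standard error alone was also enough to end the calls of Coro2b, Csnk2b and Nf2, described further on. The recomputed call of Csnk2b, however, ended only without CaKO replicate 3. The CaKO libraries stood at 152% to 203% of the implied control level of 33.6 normalised counts.

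**Figure D2:**
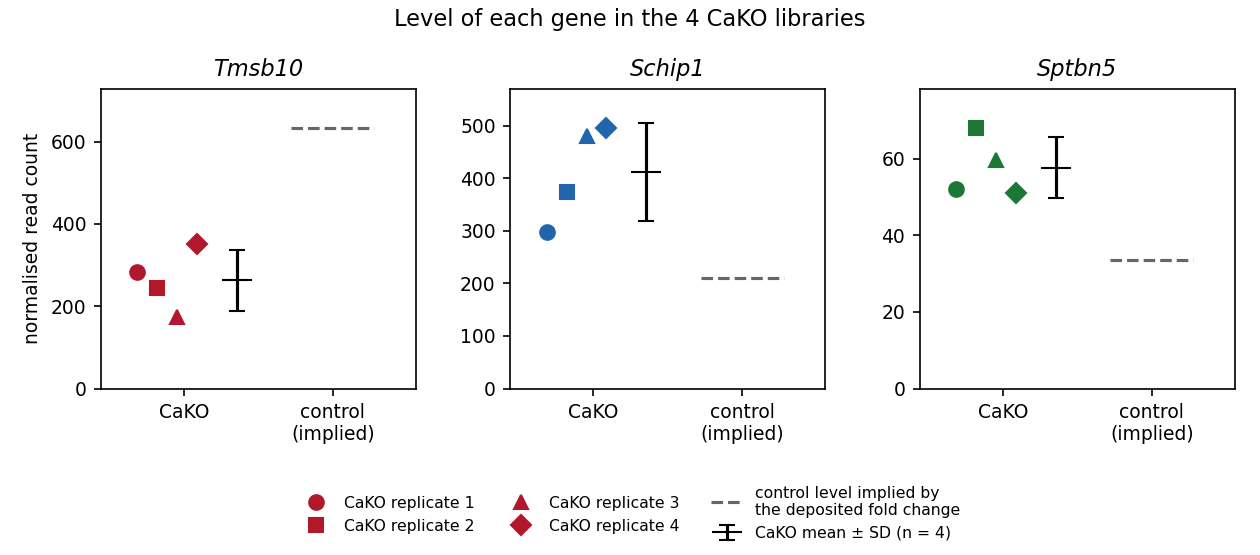
Normalised read counts of Tmsb10, Schip1 and Sptbn5 in the 4 CaKO libraries (coloured points, 1 shape per replicate), with their mean and SD in black, on separate axes that start at 0. The dashed line is the control level implied by the deposited fold change, not a measured value. Tmsb10 ran from 175.0 to 352.2, Schip1 from 297.5 to 496.0 and Sptbn5 from 51.1 to 68.1 normalised counts.

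The libraries differed for Tmsb10 and Schip1 by more than counting error, whereas for Sptbn5 counting error was as large as the spread. The SD of Tmsb10 was 4.56 times, that of Schip1 4.6 times and that of Sptbn5 1.04 times the SD that counting of so many reads would give alone (16.2, 20.3 and 7.60 normalised counts). For Sptbn5 the exact Poisson 95% interval ran from 36.3 to 64.8 reads in replicate 4, the lowest, and from 52.8 to 86.2 reads in replicate 2, the highest, so they overlap. These intervals cover counting error only and rest on the inferred reads. Against listed genes within 2-fold of its mean, the coefficient of variation of Tmsb10 (28.1%) was above that of 700 of 737 genes and that of Schip1 (22.7%) above that of 735 of 801 genes. For Sptbn5 (13.6%) it was 86 of 305 genes.

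Per kilobase of exon, the order of the levels in CaKO was Tmsb10, Schip1 and Sptbn5. The means were 207 ± 58.0, 80.8 ± 18.3 and 4.95 ± 0.676 normalised counts per kilobase (SD, n = 4 each), and in none of the 4 libraries did the order change. With only the exon bases outside Iqschfp as its length, Schip1 would average 133 per kilobase, and in replicate 3 it would stand above Tmsb10, at 155 against 137. The ratio of Schip1 to Tmsb10 counts within a library, which no scaling factor affects, was 1.05, 1.53, 2.74 and 1.41 in replicates 1 to 4, so it was highest in replicate 3.

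**Figure D3:**
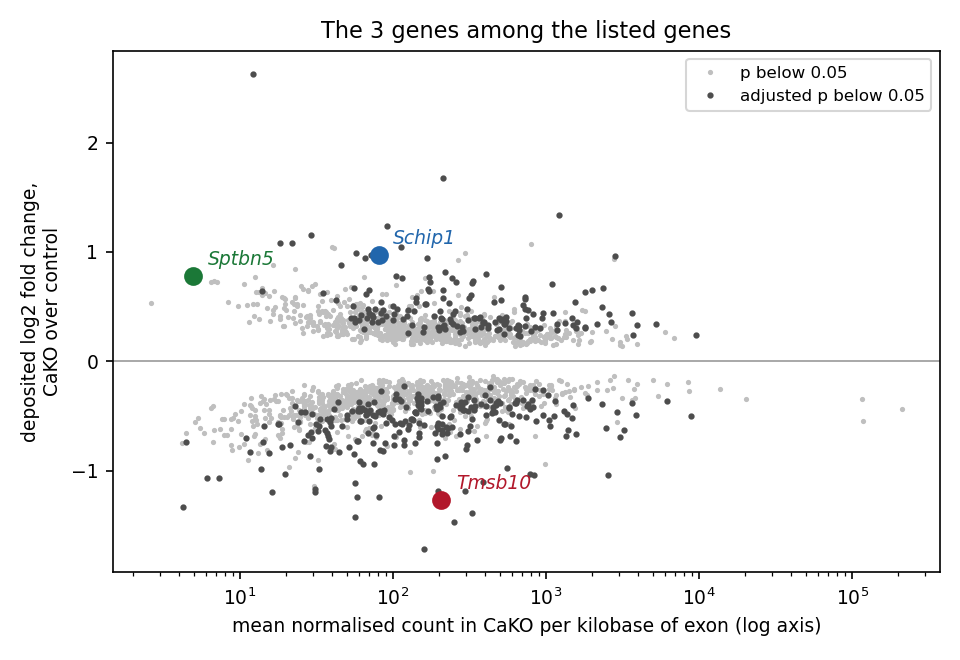
Deposited log2 fold change (CaKO over control) against mean CaKO level per kilobase of exon on a log axis, for the listed genes of the adjustment, with those called in dark grey. Tmsb10 sits among the larger decreases at 207 normalised counts per kilobase and Schip1 among the larger increases at 80.8, and Sptbn5 at 4.95 is near the low end of the levels.

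The 3 genes did not share a pattern over the CaKO libraries. Likeness was measured as the root-mean-square distance between log2 profiles, each minus its own mean, over the 4 CaKO libraries and 1984 genes with a mean of at least 50 normalised counts. With 4 libraries, close matches arise among so many genes whatever their relation. Nearest to Tmsb10 were Nyap1, Prr7 and Hcfc1r1, at distances of 0.028, 0.036 and 0.042. Nyap1, for example, had 528, 482, 338 and 680 normalised counts in replicates 1 to 4. None of the 3 passed in the authors' deposited table, with log2 fold changes of -0.48, -0.44 and -0.53. Nearest to Schip1 were Tppp3, S100a10 and Hes6 (0.046, 0.057 and 0.075), of which Hes6 rose in the authors' deposited table (log2 0.65, adjusted p = 0.0454) and the others did not pass, at 0.34 and 0.44. Nearest to Sptbn5 were Tnfaip8l3, Epdr1 and Phlda1 (0.017, 0.019 and 0.022). By the authors' deposited table Phlda1 fell (log2 -0.49, adjusted p = 0.0357), against the rise of Sptbn5, while Tnfaip8l3 (0.33) and Epdr1 (0.23) did not pass. The order in which Tmsb10 had replicate 3 lowest and replicate 4 highest was shared by 389 of the 2047 listed genes of the adjustment (19.0%). Those of Schip1 (replicate 1 lowest, replicate 4 highest) and of Sptbn5 (replicate 4 lowest, replicate 2 highest) were shared by 9.14% and 4.89%, counting each gene itself.

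**Figure D4:**
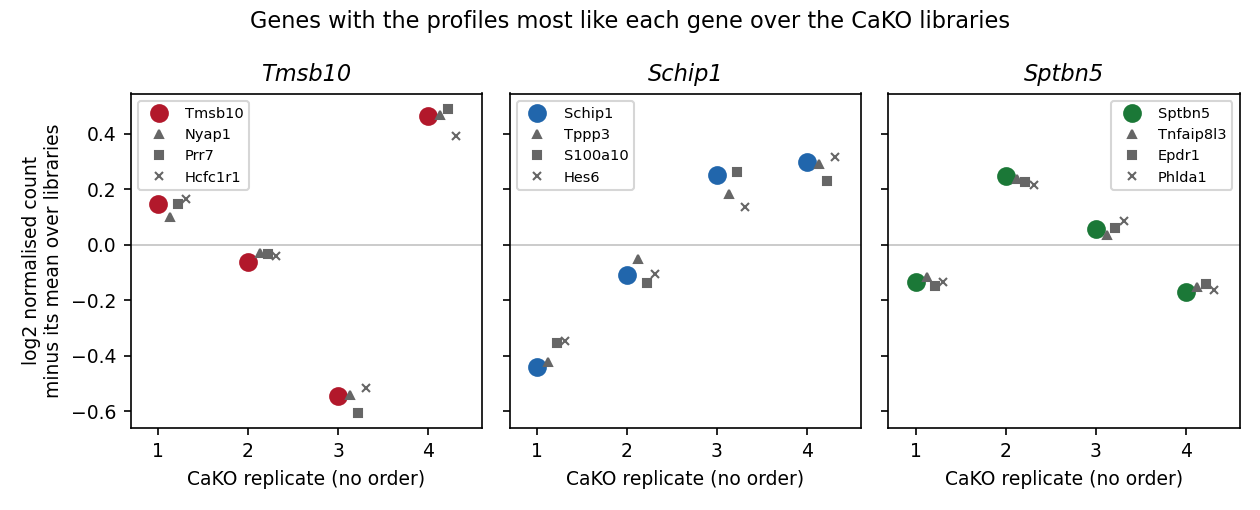
Log2 normalised counts minus their mean over the 4 CaKO libraries, for each of the 3 genes (large points) and the 3 genes nearest to it (small grey marks). Replicates have no order. Tmsb10 and its neighbours are lowest in replicate 3, Schip1 and its neighbours in replicate 1, and those around Sptbn5 are highest in replicate 2.

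The pathways around the 3 genes gave few further calls. Of 159 other genes on 9 lists of actin, spectrin and axon initial segment genes, 2 rose and 6 fell in the authors' deposited table (5.03%, against 3.24% of all genes in the adjustment). Without CaKO replicate 3, 0 of the calls higher and 2 of those lower were kept, and over all genes 76 and 104, against 164 and 255 with it. Only genes already called were recounted, with a wider standard error, so these counts could only fall. In all, 29 of the 159 had an unadjusted p below 0.05, 8 of them higher and 21 lower, where 7.14% and 8.68% of all genes in the adjustment were. The median of their log2 fold changes was -0.27, against -0.22 for all 2047 such genes. The other 130 have no value here. No single list gave more than 2 calls besides the 3 genes, too few to compare with the share over all genes.

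Among genes that hold or feed actin subunits, only Tmsb10 has a value. The remaining 9 beta-thymosins and profilins of the list, Tmsb4x and the neuronal profilin Pfn2 included, have none. Of 6 actins, Actg1, the cytoplasmic gamma actin, had 9442, 9461, 12227 and 10432 normalised counts in CaKO replicates 1 to 4. It was highest in replicate 3, as were 25.5% of the 2047 listed genes of the adjustment. Tmsb10 was lowest in that library, as were 36.5% of them. By the authors' deposited table Actg1 rose, at a log2 value of 0.33 and an adjusted p of 0.0225. It shares 29.9% of its windows of 100 bases with other genes, most with Gm12715, so reads may be split between copies. The call ended without CaKO replicate 3, at 0.25, but not from the wider standard error alone.

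Genes that branch or cut filaments gave 3 calls, all lower. Falls outnumbered rises over all genes too (255 and 164). Of 34 actin nucleation genes, 2 fell (5.88%, against 3.24% of all genes in the adjustment). Both encode subunits of the Arp2/3 complex, which branches filaments. Arpc3 had 858, 735, 508 and 944 normalised counts in CaKO replicates 1 to 4, with the same lowest and highest libraries as Tmsb10, and it fell in the authors' deposited table (log2 -0.67, adjusted p = 0.00839). Without CaKO replicate 3 its call ended, at -0.51, again not from the wider standard error alone. Arpc2 was steadier at 2097 ± 107 (SD, n = 4), and also fell in the authors' deposited table (log2 -0.30, adjusted p = 0.00931). The subunit Arpc1b stood at -0.43 in the authors' deposited table and did not pass (adjusted p = 0.0981). Actr2 (0.25), Arpc5 (0.24) and Arpc1a (0.17), subunits named after their values were seen, pointed the other way and did not pass either. Wasf2 (-0.37) and Brk1 (-0.30) of the WAVE complex, which activates Arp2/3, and the formin Daam2 (-0.27) did not pass. Of 28 severing, capping and recycling genes, 1 fell (3.57%), the coronin Coro2b. It averaged 1924 ± 368 (SD, n = 4), with log2 -0.42 and an adjusted p of 0.0454 in the authors' deposited table. Coro1a (0.20) and the severing protein Gsn (-0.21) did not pass. The call of Coro2b ended without CaKO replicate 1, 2 or 3, at -0.42, -0.42 and -0.31, and the wider standard error alone was enough to end it.

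None of 24 crosslinkers and tropomyosins was called in the authors' deposited table, with 7 at an unadjusted p below 0.05, 1 higher and 6 lower. Tpm1, a tropomyosin that coats filaments, stood at 0.24, and Vasp, Lcp1 and Tpm2 at -0.56, -0.38 and -0.56 (adjusted p up to 0.215).

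Sptbn5 was alone among the spectrins in having a value, which only genes with an unadjusted p below 0.05 have. The other 6 genes, the abundant brain forms Sptan1, Sptbn1 and Sptbn4 included, have none. Of 11 genes for adducins, ankyrins and the Epb41 family, which link spectrin to actin and to membrane proteins, Epb41l2 fell. It averaged 1439 ± 123 normalised counts (SD, n = 4), with log2 -0.42 and an adjusted p of 0.00344 in the authors' deposited table, and its call held with each CaKO library left out. Ank3, which encodes ankyrin-G, stood at -0.22 and did not pass (adjusted p = 0.233).

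Of 37 genes of the axon initial segment and node other than Schip1, 1 fell in the authors' deposited table. Csnk2b, the regulatory subunit of casein kinase 2, a kinase that promotes the binding of sodium channels to ankyrin-G, averaged 706 ± 109 (SD, n = 4) and fell in the authors' deposited table (log2 -0.41, adjusted p = 0.0418). Fgf13, which binds sodium channels, and Nfasc, the adhesion protein neurofascin, stood at -0.24 and -0.19, and the microtubule-end protein Mapre3 at 0.19. These did not pass, and the sodium channel genes and Sptbn4 have no value. The call of Csnk2b ended only without CaKO replicate 3, at -0.31, with a standard error that was widened and not estimated anew.

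Of 7 partners of SCHIP1 and ERM proteins, the membrane linkers related to merlin, Nf2 fell while Schip1 rose. Nf2 had 1064, 915, 1011 and 1160 normalised counts in CaKO replicates 1 to 4, with log2 -0.37 and an adjusted p of 0.0411 in the authors' deposited table. Moesin (Msn) stood at -0.24 and did not pass. The call of Nf2 ended without CaKO replicate 1, 2 or 3, at -0.38, -0.32 and -0.36, and the wider standard error alone was enough to end it.

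**Figure D5:**
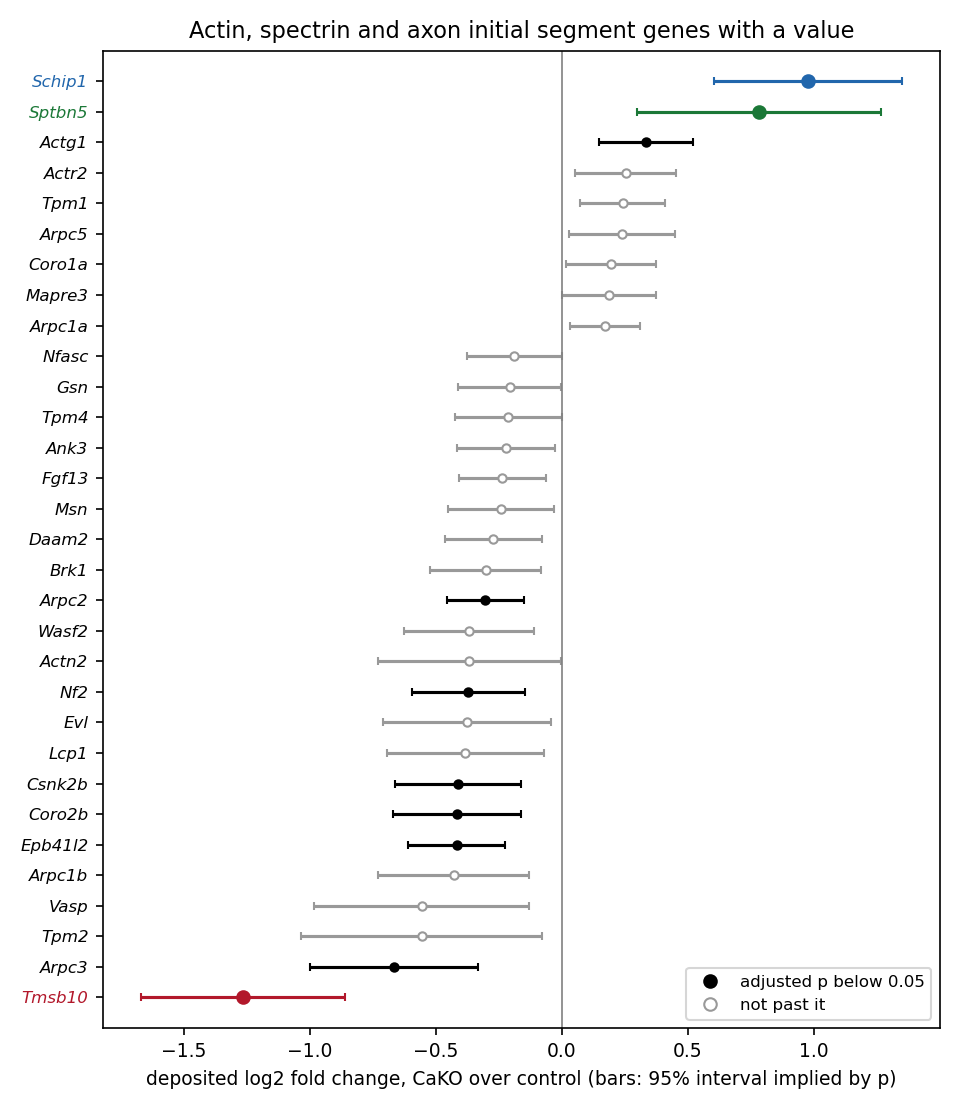
Deposited log2 fold changes, CaKO over control, of the 3 genes (coloured) and of 28 other genes of the lists with an unadjusted p below 0.05, with the 95% interval that the p implies. Filled points passed an adjusted p of 0.05. Tmsb10 at -1.27 and Schip1 at 0.98 lie at the ends, and other called genes run from -0.67 for Arpc3 to 0.33 for Actg1.

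The libraries and the cell types of the tissue also differed. Inferred reads over the listed genes ranged from 2832931 to 3183638 per CaKO library, and total depth is unknown. Mitochondrial transcripts took 22.8%, 20.1%, 15.5% and 17.2% of the normalised counts in the table in replicates 1 to 4, highest in the library lowest for Schip1 and lowest in the library lowest for Tmsb10. The table holds 0 genes that overlap Gpr158, so loss of its transcript was not checked. Cortical markers were present, such as the neuronal transcription factor Tbr1 at 2316 normalised counts. Of 149 markers on 10 lists of cell types, 4 rose and 19 fell in the authors' deposited table (15.4%, against 3.24% of all genes), and of the 51 with a value 0 were at 0 in any CaKO library. Summed levels are given as ranges over the CaKO libraries, in normalised counts. They cover only the markers of a list that have a value, not the whole list. These were 14 of the 20 mature oligodendrocyte markers, for example, and 2 of the 16 inhibitory neuron markers (Cck and Npy). Of mature oligodendrocyte markers 5 of 20 fell (40681 to 49551), of oligodendrocyte precursor markers 3 of 12 (2494 to 3419), of upper-layer excitatory neuron markers 3 of 12 (6766 to 8749) and of inhibitory neuron markers 2 of 16 (3516 to 5314). Endothelial markers had 1 of 18 lower (3919 to 4762), blood cell markers 1 of 10 (867 to 1405) and microglial ones 0 of 18, with Trem2 alone having a value (144 to 178). Astrocyte markers had 1 higher and 2 lower of 16 (13250 to 16238), deep-layer neuron markers 1 and 1 of 15 (4964 to 5771) and meningeal and fibroblast markers 2 and 1 of 12 (6598 to 7774). The 4 that rose, as did Schip1 and Sptbn5, and that are named after their values were seen, were Ogn (log2 0.78), Ptgds (0.44), Gjb2 (0.67) and Crym (0.73) in the authors' deposited table. Their part in the values of the 3 genes was not tested.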

How the data were processed

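RNA from the mPFC of 4 CaKO and 4 control mice was poly-A selected and read as 100 bp pairs, per the labels' protocols. Titles and genotypes gave the groups. TopHat2 2.0.12 (genome GRCm38, mm10) and HTSeq 0.6.1 made the gene counts, per the study's design text, and the submitters' processing notes also name DESeq2 1.30.1. The deposited signal of each CaKO library is a normalised count: although the table's name speaks of FPKM, 100% of values were whole multiples of 1 step per library (0.994 to 1.04, tolerance 0.01) whatever the gene length. The log2 fold changes, p-values and adjusted p-values are the authors'. All 18 genes at 0 in every CaKO library have negative fold changes, which sets the direction as CaKO over control. Listed p-values end at 0.0499. The adjusted values of 2047 genes match a Benjamini-Hochberg adjustment over 12938 genes within a relative difference of 0.00504, and 325 listed at 1 were taken as outside it.

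GENCODE M21 matched 2266 genes exactly and 89 by at least 80% mutual overlap, and 17 stayed unmatched (Python 3.11.15, scipy 1.17.1, Biopython 1.88). Standard errors came from each fold change and its p, as in a Wald test, and the implied control level from the mean over CaKO libraries. Leaving out a CaKO library meant recomputing the fold change from the other 3 and keeping a call at p of at most 0.00162. The standard error was that of all libraries, widened for 3, and was not estimated anew. Genes not called with every library could not gain a call. Simulated data tested only the recovery of the size of the adjustment, of planted nearest profiles and of the widening of the standard error. The recomputed fold changes and the kept calls were not simulated. The planned limma fit was not run, since control values were not analysed here. Genes, lists and tests were chosen with earlier results of these data known. Named from the pathway lists were the called genes, except 1 that is not reported here, and up to 4 others per list by p, and the 3 nearest profiles of each gene.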

Additional observations from a re-analysis of the deposited data

Results flagged for a closer look

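Among the 32 genes of the pathway lists with a value, the 3 main genes included, Csnk2b had 1 CaKO library far from the others. Replicate 3 held 543 normalised counts, against 752 to 767 in the other 3, a gap of 93.5% of the whole range. The same test flagged none of the 3 main genes. Chance flags about 1 in 20 groups of libraries.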

How the results depend on the processing

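The CaKO means of Tmsb10, Schip1 and Sptbn5 moved by less than 1 SD under all 21 alternatives run (scaling by the reads of the listed genes, median-of-ratios scaling, the median, and each CaKO library left out). This is no support, since the median and a mean with 1 of 4 libraries left out always lie within 1 SD of the mean. Both other scalings were set to the same geometric mean over the libraries as the deposited one, so they could move the means little. Without each CaKO library in turn, the log2 fold change of Tmsb10 ran from -1.44 to -1.11 and that of Schip1 from 0.87 to 1.1, and both calls held. That of Sptbn5 ran from 0.69 to 0.84, and its call ended in all 4 cases. With the fold change of Sptbn5 held, the wider standard error of 3 libraries was enough to end its call. Median-of-ratios scaling left the 3 calls in place, but for the same reason it could move the fold changes little. Over all genes, 51 rose and 90 fell at an adjusted p below 0.01, and 275 and 396 below 0.1. Without 1 CaKO library, 76 to 129 calls higher and 104 to 222 lower were kept, fewest without replicate 3. Counts without 1 library, here and for the lists, hold only genes already called, so they could only fall. Pathway genes other than the 3 came to 0 higher and 3 lower below 0.01, and 0 to 2 and 2 to 6 without 1 library. Cell type markers came to 1 and 10 below 0.01, and 2 to 4 and 11 to 18 without 1 library. A threshold on the CaKO mean of 50 normalised counts kept all these counts within 1.5 times. Leaving libraries out for the lists was chosen after seeing the data. No paired analysis was possible because the control libraries' values were not analysed here.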
